A study of Danio rerio with 18 samples.

Results

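The 10 genes described here belong to the machinery that drives an oocyte into M phase, and their RNA was measured in zebrafish mature eggs and FG follicles. They are the kinase gene mos, the cyclin genes ccnb1, ccnb2, ccna1 and ccna2, the cyclin-dependent kinase gene cdk1, the inhibitory kinase genes wee2 and pkmyt1, and the phosphatase genes cdc25b and cdc25d. They were taken by symbol from the deposited expression table, which held all 10 among its 25432 genes. Of the 10, 8 reached 1 FPKM (fragments scaled by gene length and by the mapped fragments of a library) in 4 or more of the 18 libraries and entered the test across genes, while mos and cdc25d did not. They were picked out by name, and the names were chosen with earlier results of these data known.

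The 4 groups were mature eggs of wild-type fish (5 libraries), mature eggs of sinhcaf-/- fish (5 libraries), FG follicles of wild-type fish (4 libraries) and FG follicles of sinhcaf-/- fish (4 libraries), all from ovary. sinhcaf encodes a subunit of the SIN3 histone deacetylase complex. A library held eggs or follicles pooled from a single female, so the spread between libraries is a spread between fish. The labels give neither the age and strain of the fish nor the lesion in the mutant allele, do not spell out FG, and do not say whether a fish gave both eggs and follicles.

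A fully grown oocyte waits in prophase of the first meiotic division. The maturation-promoting factor that ends this arrest is a complex of cyclin B with the kinase CDK1. Kinases of the Wee1 and Myt1 families hold it inactive by phosphorylating CDK1, and Cdc25 phosphatases remove those phosphates. Mos, a kinase made from stored mRNA, switches on the MAP kinase cascade and in vertebrate eggs takes part in the arrest at the second metaphase. Transcription is largely silent in the maturing oocyte, and translation from stored mRNA supplies much of what it needs. FPKM values of these poly(A) RNA libraries measure only RNA captured by its poly(A) tail, not the protein or its phosphorylation.

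Summed FPKM per library ran from 287120 to 464199, and genes of the mitochondrial genome took a part of that sum that moved with stage and genotype. In eggs this share was 33.1% to 37.9% in wild type and 37.1% to 51.0% in mutants, and in FG follicles it was 14.01% to 17.7% in wild type and 7.65% to 13.8% in mutants. The read depth of the libraries is unknown, since FPKM values carry no counts, so precision rests on the spread between fish. sinhcaf itself had 0.361 to 1.59 FPKM in wild-type eggs and 0.184 to 0.351 in mutant eggs, and 0.615 to 3.05 in wild-type FG follicles and 0.359 to 1.04 in mutant ones, so it was not absent from mutants, and the FG ranges overlapped. All 9 oocyte markers averaged at least 1 FPKM in every group, but their levels were not all alike between genotypes. By the test across genes, 2 were higher and 0 lower in mutant eggs, where 15.1% of all tested genes differed. In mutant FG follicles 3 were higher and 2 lower, where 23.5% of all tested genes differed. Egg libraries 1 to 3 and 4 to 5 stood apart from each other in both genotypes, with 6929 to 7424 genes at 1 FPKM or more in the former and 7682 to 7917 in the latter, and mutant FG libraries 1 and 3 stood together (r = 0.994 across genes). Wild-type egg libraries 1 and 3 were nearly as alike (r = 0.993). Each of these was left out in turn, but no setting averaged that egg pair. The split of the egg libraries and the averaging of mutant FG libraries 1 and 3 were added after seeing the data, and results that rest on them are given both ways.

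Among the cyclins, ccnb2, encoding cyclin B2, had the highest mean level of the 10 genes in each of the 4 groups. Wild-type eggs had 912 ± 90.9 FPKM (SD, n = 5) and wild-type FG follicles 462 ± 37.8 (n = 4). In wild-type eggs the order of mean FPKM then ran from ccna1 (592 ± 56.5) through ccnb1 (323 ± 46.0), ccna2 (282 ± 22.6) and cdc25b (214 ± 8.81) to wee2 (28.6 ± 3.61). Of these neighbours, the ranges of ccnb1 and ccna2 overlapped. Far below them lay cdk1 at 0.855 ± 0.366 FPKM and pkmyt1 at 0.502 ± 0.0592, whose ranges also overlapped. In these poly(A) RNA libraries, RNA for the catalytic subunit CDK1 was thus far less abundant in the egg than RNA for its cyclin partners. The scale allows for gene length but not for differences in poly(A) capture. In wild-type FG follicles the order was ccnb2, ccnb1 (248 ± 61.0), ccna1 (189 ± 38.4), cdc25b (73.2 ± 6.22), ccna2 (57.8 ± 19.1), pkmyt1 (16.7 ± 2.62), wee2 (15.8 ± 0.815) and cdk1 (10.3 ± 4.57). Here ccnb1 and ccna1, cdc25b and ccna2, and the last 3 genes overlapped with their neighbours. Mutant eggs had the wild-type order, with ccnb1 at 433 ± 74.6, and ccna2 (242 ± 25.2) overlapping with cdc25b (232 ± 25.9). In mutant FG follicles ccnb2 (348 ± 26.4) and ccnb1 (283 ± 42.8) overlapped, and wee2 (33.3 ± 6.99) lay above pkmyt1 (20.6 ± 1.11) and cdk1 (16.7 ± 1.66) with no overlap.

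**Figure D1:**
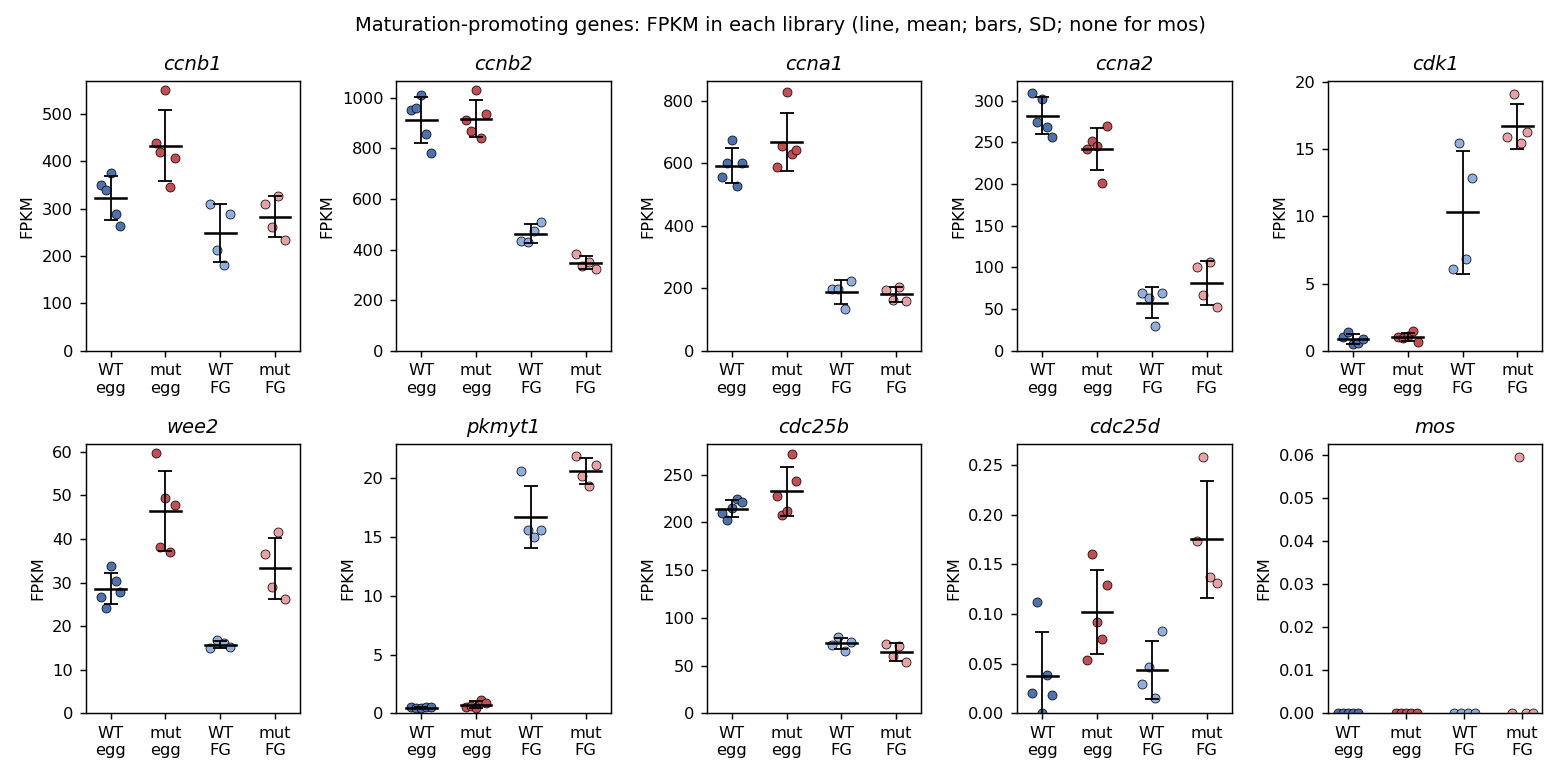
FPKM (linear vertical axes, each panel with its own scale) of the 10 genes in the 18 libraries, by group; points are libraries, lines are group means and bars are SD (none are drawn for mos). The wee2 points of mutants lie above those of wild type at both stages, and cdk1 and pkmyt1 are near 0 in all eggs.

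The first question was whether loss of sinhcaf went with a different level of these genes in mature eggs. Of the 8 tested genes 1 rose in mutant eggs, wee2, and none fell; 15.1% of all 10547 tested genes were called in this comparison (7.35% higher, 7.71% lower). The median log2 change of the 8 was 0.16, against 0.04 for all tested genes. wee2 encodes a Wee1-family kinase that in mouse and human is specific to the oocyte, where it phosphorylates CDK1. Its FPKM in wild-type eggs was 26.8, 24.2, 33.7, 30.3 and 27.9 in libraries 1 to 5. In mutant eggs it was 59.6, 38.3, 49.4, 37.1 and 47.8. Every mutant egg library lay above every wild-type one, and wee2 was the 1 gene of the 8 without overlap (11.1% of all tested genes had none). The mean went from 28.6 ± 3.61 to 46.4 ± 9.19 FPKM, a log2 change of 0.67 ± 0.14 (SE) with a limma adjusted p of 0.00306. The change was 0.77 (adjusted p = 0.0152) in egg libraries 1 to 3 alone and 0.52 (adjusted p = 0.122) in libraries 4 and 5 alone, with 2 fish a group in the latter. It also missed the threshold with median-of-ratios scaling (adjusted p = 0.0527).

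The other tested genes did not pass the test in eggs. ccnb1, encoding cyclin B1, had 349, 339, 375, 288 and 263 FPKM in wild-type egg libraries 1 to 5. Mutant eggs had 439, 419, 551, 346 and 408 FPKM. The ranges overlapped in the region of 346 to 375 FPKM, and the log2 change of 0.42 (95% interval 0.09 to 0.74) had an adjusted p of 0.0801. With mitochondrial genes taken out and values rescaled to an equal sum per library, it passed (0.51, adjusted p = 0.0229). ccnb2 was close to level, at 912 ± 90.9 FPKM in wild type and 918 ± 72.4 in mutants, with a log2 change of 0.01 and a 95% interval from -0.17 to 0.20. ccna1, the A-type cyclin that in Xenopus is the maternal form, had a log2 change of 0.17 (-0.10 to 0.44). For ccna2, the A-type cyclin of dividing somatic cells, the change was -0.22 (-0.67 to 0.22). cdc25b, encoding a phosphatase that activates CDK1, had 214 ± 8.81 and 232 ± 25.9 FPKM, a change of 0.11 (-0.10 to 0.32). The 2 genes near the floor in eggs, cdk1 and pkmyt1, had changes of 0.14 (-0.29 to 0.58) and 0.21 (-0.03 to 0.46), and such low values draw a log2(FPKM + 1) change towards 0.

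In FG follicles, the same comparison gave rises of wee2 and cdk1 and a fall of ccnb2 in mutants, 3 of the 8 tested genes, where 23.5% of all tested genes were called (10.1% higher, 13.4% lower). The groups of these 3 genes did not overlap, as for 29% of all tested genes. The median log2 change of the 8 was 0.26, against -0.05 for all tested genes. wee2 had 15.1, 16.8, 16.1 and 15.1 FPKM in the 4 wild-type libraries and 36.4, 28.9, 41.6 and 26.3 in the 4 mutant ones. The lowest mutant library was well above the highest wild-type one. The log2 change was 1.01 ± 0.16 (SE), with an adjusted p of 0.000145, and the mean FPKM was 2.11 times as high. wee2 passed the test under all 16 alternative settings tried, with changes from 0.90 to 1.19.

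ccnb2 had 435, 429, 473 and 511 FPKM in wild-type FG follicles and 384, 334, 352 and 324 in mutant ones. The groups did not overlap. The mean fell from 462 ± 37.8 to 348 ± 26.4 FPKM, a log2 change of -0.41 ± 0.10 (SE) with an adjusted p of 0.00554. The call was lost when FPKM was rescaled to an equal sum per library (-0.26, adjusted p = 0.113) and with median-of-ratios scaling, where the change was again -0.41 (adjusted p = 0.165). cdk1 had 6.06, 15.4, 6.86 and 12.8 FPKM in wild-type FG follicles and 15.9, 19.1, 15.5 and 16.3 in mutant ones. The groups came close to touching, with wild-type library 2 just under mutant library 3, and the wild-type libraries were more spread than the mutant ones. The log2 change was 0.74 ± 0.23 (SE) with an adjusted p of 0.0269, and this call was the least stable of the 3: it held in 9 of 16 alternatives. It was lost without wild-type library 1 (adjusted p = 0.0945), without wild-type library 3 (adjusted p = 0.0968) and without mutant library 2 (adjusted p = 0.0764), with changes of 0.54 to 0.67. It was also lost with a pseudocount of 0.1 (0.80, adjusted p = 0.104), with rescaling without mitochondrial genes (0.85, adjusted p = 0.0545), with median-of-ratios scaling (0.70, adjusted p = 0.0602) and in a fit of these groups alone (0.74, adjusted p = 0.0604). With mutant libraries 1 and 3 averaged into a single value, all 3 calls held, with log2 changes of 0.93 for wee2 (adjusted p = 0.000891), -0.43 for ccnb2 (adjusted p = 0.00890) and 0.76 for cdk1 (adjusted p = 0.0476).

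The remaining genes did not pass the test in FG follicles. ccna2 had 69.5, 63.2, 29.5 and 69.0 FPKM in wild type and 101, 66.4, 106 and 51.9 in mutants. Mutant libraries 1 and 3, which stand together, were the highest of the 8, and the other mutant libraries lay among the wild-type ones. The log2 change was 0.50 (95% interval 0.00325 to 1.002, adjusted p = 0.140), and it ran from 0.21 to 0.70 when a library was left out. It was lowest without wild-type library 3, whose 29.5 FPKM was far below the others (0.21, adjusted p = 0.487), and highest without mutant library 4, where it passed (0.70, adjusted p = 0.0411). With mutant libraries 1 and 3 averaged into a single value, the ccna2 change was 0.37 (limma adjusted p = 0.346). pkmyt1, the gene of the membrane-bound kinase Myt1 that phosphorylates CDK1, had 16.7 ± 2.62 FPKM in wild type and 20.6 ± 1.11 in mutants, a change of 0.30 (0.02 to 0.58, adjusted p = 0.112). Without wild-type library 1 it passed (0.40, adjusted p = 0.0360). ccnb1 had a change of 0.21 (-0.15 to 0.58), ccna1 of -0.05 (-0.35 to 0.26) and cdc25b of -0.19 (-0.43 to 0.04).

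**Figure D2:**
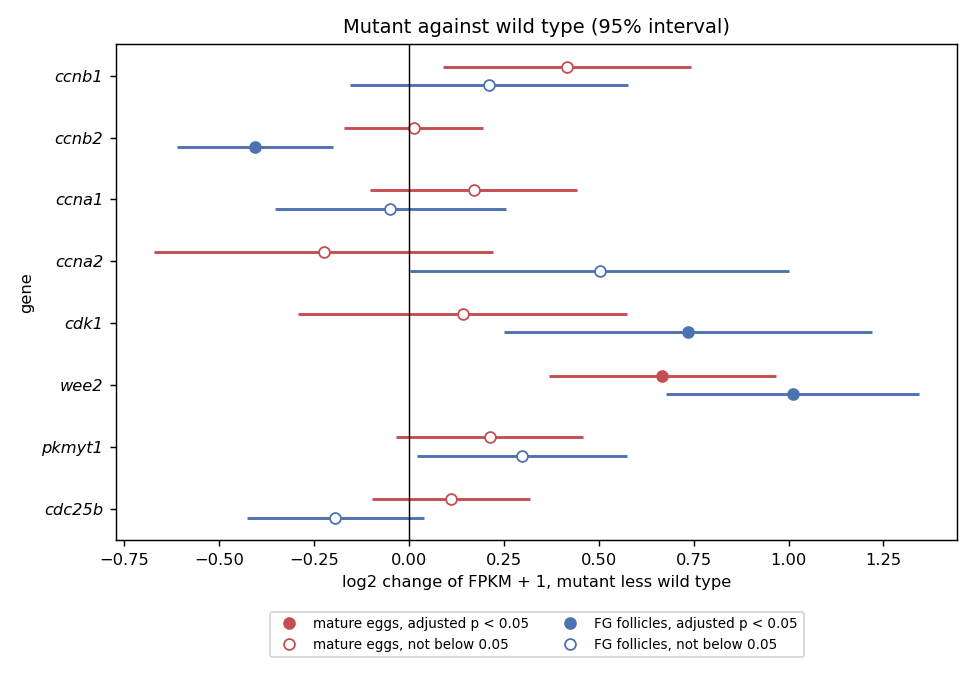
Log2 change of FPKM + 1, mutant less wild type (horizontal axis), for the 8 tested genes in mature eggs (red, 5 against 5 libraries) and FG follicles (blue, 4 against 4); bars are 95% intervals from the limma fit and filled points have an adjusted p under 0.05. wee2 is filled at both stages (0.67 and 1.01), while ccnb2 (-0.41) and cdk1 (0.74) are filled in FG follicles.

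Markers of other cells of the follicle were read in the same libraries. The summed FPKM of 15 granulosa and follicle cell markers was 47.8 to 91.9 in wild-type FG follicles and 87.5 to 169 in mutant ones, with overlapping ranges. In eggs it was 27.7 to 37.0 in wild type and 37.1 to 135 in mutants, ranges that nearly met but did not overlap. Of the 8 of these markers that were tested, 3 were higher in mutant FG follicles (10.1% of all tested genes) and 1 in mutant eggs (7.35%). Among the 8, foxl2b passed the filter only through the mutants. inhbaa and nr5a1a reached 1 FPKM in 1 wild-type and 3 mutant FG libraries each. For these genes the filter favoured the higher direction. cyp11a1, the side-chain cleavage enzyme of steroid synthesis, had the highest level of the list in all groups, with log2 changes of 1.29 in eggs (adjusted p = 0.0112) and 0.77 in FG follicles (adjusted p = 0.143). It was the 1 marker of the 15 that averaged at least 1 FPKM in wild-type or in mutant eggs, so the egg sums rest largely on it. In FG follicles 6 markers averaged at least 1 FPKM in wild type and 8 in mutants. In wild-type eggs fshr, amh, foxl2a, star and fstb were at 0 in all libraries, and in mutant eggs only foxl2a and fstb were. The 9 leukocyte markers summed to 2.71 to 4.15 FPKM in wild-type and 3.55 to 20.2 in mutant FG follicles, with overlapping ranges. However, 2 of the 9 were tested, and 2 were higher and 0 lower in mutant FG follicles (median log2 change 0.87). The 10 theca and stroma markers summed to 43.6 to 63.7 and 35.2 to 57.8, again with overlap, and of 3 tested 0 were higher and 1 lower. Of all tested genes 10.1% were higher and 13.4% lower there. Of the theca and stroma markers, 1 averaged at least 1 FPKM in wild-type and 2 in mutant FG follicles. cyp17a1 was the highest of them in all groups, so their sum rests largely on it. That sum was 62.6 to 99.3 FPKM in wild-type eggs. The part of these cells and of the mitochondrial share in the changes of wee2, cdk1 and ccnb2 was not tested. In bulk samples, fewer cells of a type and less RNA per cell cannot be told apart.

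Whether the genotype change differed between eggs and FG follicles was tested directly, as the change in eggs less the change in FG follicles. None of the 8 genes passed, where 6.95% of all tested genes did. At an unadjusted limma p under 0.05 there were 2, ccnb2 and ccna2. For ccnb2 the difference was 0.42 (95% interval 0.14 to 0.69, adjusted p = 0.0634), and it ran from 0.17 to 0.47 over 25 alternatives. It was lowest when FPKM was rescaled to an equal sum per library, and it passed in 1 alternative, that rescaling with mitochondrial genes taken out (0.44, adjusted p = 0.0324), while the highest adjusted p was 0.592. For ccna2 it was -0.73 (-1.40 to -0.06, adjusted p = 0.183). The differences for cdk1 (-0.59, -1.24 to 0.06) and for wee2, called at both stages (-0.34, -0.79 to 0.10), had wide intervals. For cdk1, a call in FG follicles alone therefore does not show that the stages differ. Its low egg levels (0.855 FPKM in wild type, 1.03 in mutants) also draw its egg change towards 0.

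The 2 genes too low for the test across genes were compared on their own. mos was listed at 0 in 17 of the 18 libraries and at 0.0597 FPKM in mutant FG library 2, so these data give no usable level of it at either stage. cdc25d, which encodes another member of the Cdc25 phosphatase family, had 0.0381 ± 0.0437 FPKM in wild-type eggs, 0.102 ± 0.0427 in mutant eggs, 0.0438 ± 0.0290 in wild-type FG follicles and 0.175 ± 0.0586 in mutant FG follicles. The FG groups did not overlap. A two-sided exact permutation test of log2(FPKM + 1) gave p = 0.0286 there, the smallest that 4 against 4 libraries allow, and p = 0.0635 in eggs. Over the 3 such tests the adjusted values were 0.0857 and 0.0952, so neither passed. These levels are below 1 FPKM and their read support is unknown.

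The second question was how the level of these genes differed between the egg and the FG follicle. pkmyt1 reached 1 FPKM in 1 of 10 egg libraries and in all 8 FG libraries, so it entered the test only through the FG follicles, and it is described by its values and left out of the counts. Of the other 7 genes all differed in wild type, 6 higher and 1 lower in eggs, where 82.9% of all tested genes were called (22.1% higher, 60.8% lower). In mutants all 7 differed in the same directions, where 81.7% were called (23.4% higher, 58.3% lower). Groups did not overlap for 6 of the 7 in wild type (76% of all tested genes) and for 6 of the 7 in mutants (74.8%). A call in these comparisons is therefore common, and the median log2 change of all tested genes was -0.85 in wild type and -0.79 in mutants. FPKM is a share of each library's poly(A) RNA and does not give RNA per egg. Whether poly(A) tails, and so capture, differed between stages was not measured.

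Among the genes higher in eggs, the A-type cyclins showed the largest changes in wild type. Wild-type eggs had 257 to 309 FPKM of ccna2, and wild-type FG follicles 29.5 to 69.5, a log2 change of 2.34 ± 0.23 (SE, adjusted p = 1.46e-08). For ccna1 the ranges were 527 to 676 FPKM in eggs against 134 to 224 in FG follicles, a change of 1.66 ± 0.14 (adjusted p = 1.70e-09). Neither gene's groups overlapped. In mutants the changes were 1.61 for ccna2 and 1.88 for ccna1, both past the threshold. cdc25b rose by 1.54 ± 0.11 in wild type and 1.84 ± 0.11 in mutants on the log2 scale, from 73.2 ± 6.22 to 214 ± 8.81 FPKM in wild type.

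The B-type cyclins differed less. ccnb2 had a log2 change of 0.98 ± 0.09 in wild type, where its mean FPKM in eggs was 1.97 times that in FG follicles, and of 1.39 ± 0.09 in mutants, where it was 2.64 times. ccnb1 had 0.40 ± 0.17 in wild type (adjusted p = 0.0319), with overlapping groups, and 0.61 ± 0.17 in mutants (adjusted p = 0.00242), with no overlap. The wild-type call of ccnb1 held in 9 of 16 alternatives, with changes from 0.15 when FPKM was rescaled to an equal sum per library (adjusted p = 0.446) to 1.52 with median-of-ratios scaling. It was also lost with no filter (adjusted p = 0.0572), without wild-type egg library 1, 2 or 3 (0.34 to 0.38) and without wild-type FG library 2 (0.34) or 3 (0.26). wee2 had 0.81 ± 0.15 in wild type (adjusted p = 6.62e-05) and 0.47 ± 0.15 in mutants (adjusted p = 0.00804), and in mutants the groups overlapped. With FPKM rescaled to an equal sum per library, the mutant calls of ccnb1 (0.10, adjusted p = 0.590) and wee2 (-0.025, adjusted p = 0.894) were lost.

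The called gene lower in eggs was the kinase gene cdk1. It had 1.04, 1.37, 0.484, 0.538 and 0.845 FPKM in the 5 wild-type egg libraries and 6.06, 15.4, 6.86 and 12.8 in the 4 wild-type FG libraries. No egg library came near the lowest FG library. The log2 change was -2.54 ± 0.22 in wild type (adjusted p = 3.05e-09) and -3.13 ± 0.22 in mutants (adjusted p = 1.43e-10). pkmyt1 had 0.548, 0.439, 0.435, 0.545 and 0.541 FPKM in wild-type egg libraries and 20.6, 15.5, 14.95 and 15.6 in wild-type FG libraries. In mutants it had 0.753 ± 0.259 FPKM in eggs and 20.6 ± 1.11 in FG follicles. pkmyt1 thus lay higher in FG follicles by its values, with no overlap in either genotype, and no test is given for it. wee2, the gene of the other inhibitory kinase, was higher in eggs, as given above. Among the granulosa markers, 6 of 15 averaged at least 1 FPKM in wild-type FG follicles and 1 of 15 in wild-type eggs. Their part in the higher cdk1 and pkmyt1 of FG follicles was not tested.

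**Figure D3:**
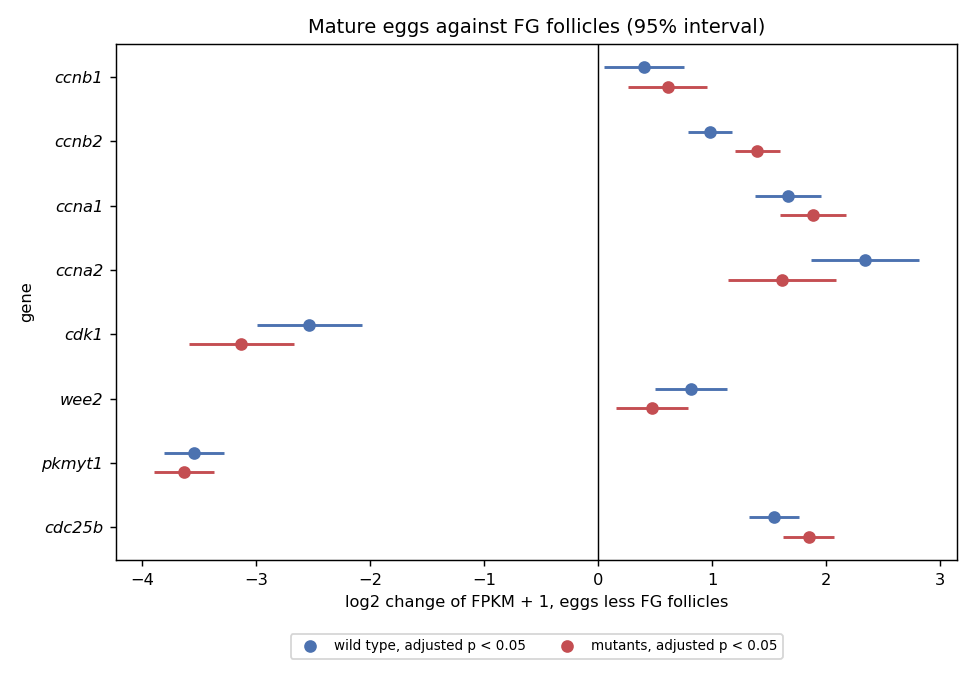
Log2 change of FPKM + 1, mature eggs less FG follicles (horizontal axis), for the 8 tested genes in wild type and in mutants; bars are 95% intervals from the limma fit and filled points have an adjusted p under 0.05, which for pkmyt1 is no test, since it passed the filter only through FG follicles. The 4 cyclin genes, wee2 and cdc25b lie to the right of 0, and cdk1 and pkmyt1 lie to the left.

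Ratios between members in the same library do not depend on how a library is scaled, and are given as a description with no test. The ratio of ccnb1 to ccnb2 FPKM was 0.335 to 0.371 in wild-type eggs and 0.411 to 0.534 in mutant eggs. In FG follicles it was 0.382 to 0.712 in wild type and 0.723 to 0.929 in mutants. The mutant libraries lay above the wild-type ones at both stages, although the FG ranges nearly met. The ratio of cdc25b to wee2, an activator of CDK1 over an inhibitor, was chosen after the values were seen. It was 6.37 to 8.34 in wild-type eggs and 3.82 to 7.31 in mutant eggs, where the ranges overlapped. In FG follicles it was 4.07 to 4.96 in wild type and 1.71 to 2.08 in mutants, with a clear gap. The ratio of pkmyt1 to wee2 was 0.924 to 1.36 in wild-type FG follicles and 0.464 to 0.801 in mutant ones, and at most 0.0302 in any egg library. The ratio of ccna1 to ccna2 averaged 2.11 ± 0.222 in wild-type eggs and 2.78 ± 0.443 in mutant eggs, and in FG follicles 3.45 ± 0.752 and 2.35 ± 0.542. That of cdk1 to wee2 averaged 0.649 ± 0.273 in wild-type and 0.523 ± 0.140 in mutant FG follicles, with overlapping ranges.

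**Figure D4:**
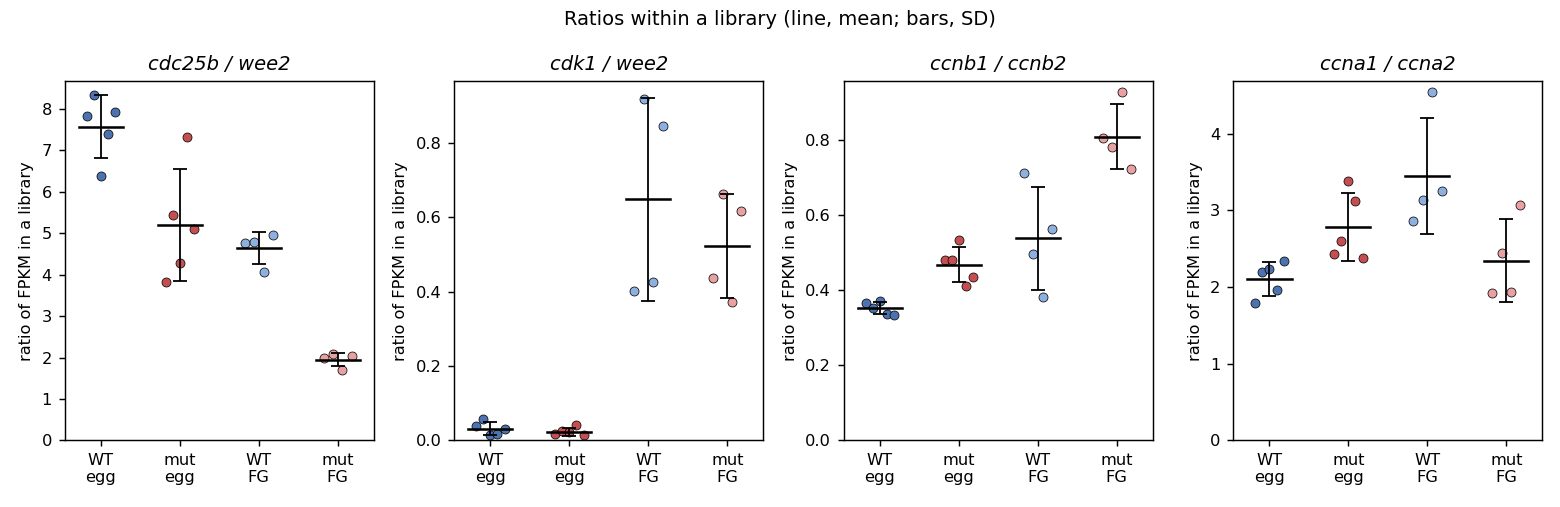
FPKM ratios of pairs of the genes in each library, by group (linear vertical axes from 0); points are libraries, lines are group means and bars are SD. Mutant FG libraries lie at 1.71 to 2.08 for cdc25b to wee2, below the wild-type ones at 4.07 to 4.96, and mutants lie above wild type for ccnb1 to ccnb2 at both stages.

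wee2 had neighbours on its chromosome that moved with it in FG follicles, a pattern that was looked for after its values were seen. In the order of protein-coding genes of the RefSeq assembly GRCz12tu, used for names and order only, 6 of the 16 genes within 8 places of wee2 were tested. All 6 were higher in mutant FG follicles, where 10.1% of all tested genes were, and 0 of the 6 passed the test in eggs. The genes directly beside it were dennd11, with a log2 change of 0.83 (adjusted p = 1.72e-06), and bida, with 0.95 (adjusted p = 6.53e-05). bcl2l13, which encodes a relative of the BCL2 proteins, had 0.61 (adjusted p = 0.00237), and asz1, a germline gene of the piRNA pathway in mouse, had 1.06 (adjusted p = 1.67e-05). ddb2, a DNA damage binding protein, had 0.44, and paqr5a, a membrane progestin receptor gene, had 0.54. In eggs bida, bcl2l13, asz1, ddb2 and paqr5a averaged at most 0.506 FPKM in either genotype, so a change there could hardly show on the log2(FPKM + 1) scale. Whether any of the 6 genes passed the filter only through mutant FG libraries, which would favour the higher direction, is not given here. Within 20 places, 13 of 40 were tested, of which 8 were higher and 0 lower in mutant FG follicles and 2 higher and 0 lower in mutant eggs. Around ccnb2 none of the 8 tested genes within 8 places was called at either stage, and within 20 places 2 of 20 were lower in mutant FG follicles, wdr76 (-2.21, adjusted p = 0.00188) and znf710b, which passed the filter only through wild-type FG follicles (1.26 FPKM, against 0.131 in mutants), and 1, wdr76, in mutant eggs (-1.65, adjusted p = 0.00966). Around cdk1, 1 of 3 within 8 places and 1 of 11 within 20 was higher at each stage, but the gene differed. It was abhd12 in mutant eggs (0.42, limma adjusted p = 0.0299) and entpd6 in mutant FG follicles (0.62, limma adjusted p = 0.0277). Of all tested genes 7.35% were higher and 7.71% lower in mutant eggs, and 10.1% higher and 13.4% lower in mutant FG follicles. The part of this shared position in the change of wee2 was not tested.

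**Figure D5:**
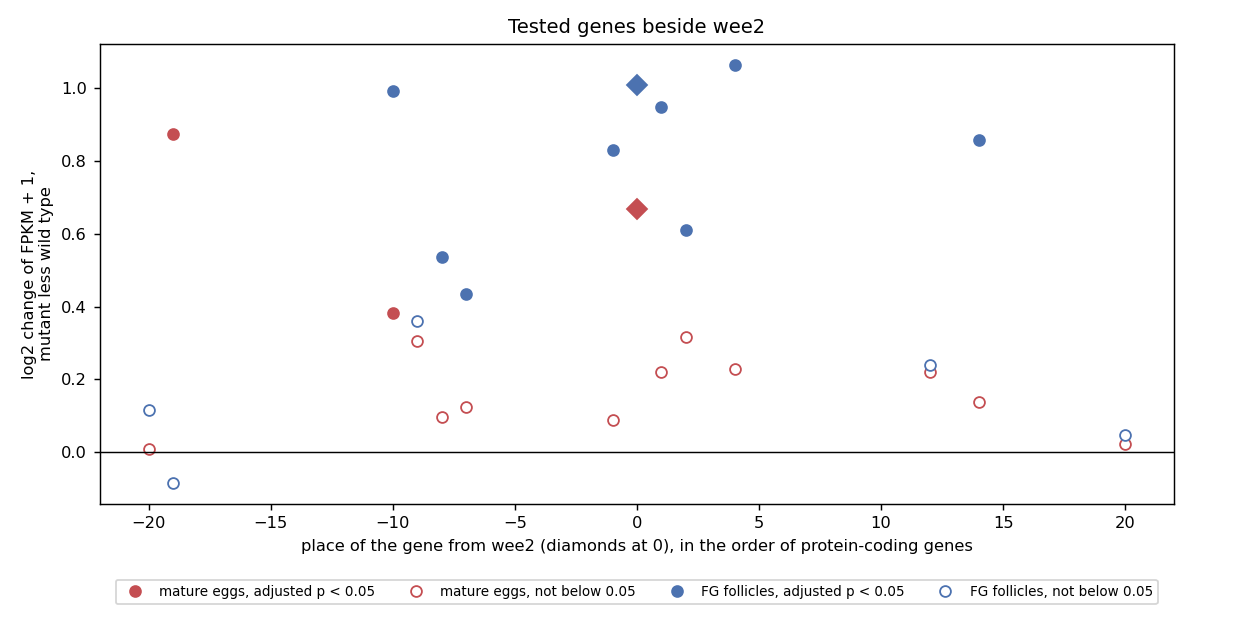
Log2 change of FPKM + 1, mutant less wild type (vertical axis), of wee2 (diamonds) and the 13 tested genes within 20 places of it (horizontal axis, place in the order of protein-coding genes), in mature eggs (red) and FG follicles (blue); filled points have an adjusted p under 0.05. In FG follicles the 6 tested genes within 8 places all lie above 0 and are filled, while in eggs they are open.

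Genes of the pathway around the members were read as lists, whose counts stand beside the share of all tested genes that were called: 7.35% higher and 7.71% lower in mutant eggs, and 10.1% higher and 13.4% lower in mutant FG follicles. The median log2 change of all tested genes was 0.04 in eggs and -0.05 in FG follicles. The cascade that Mos switches on was covered by a list of 12 genes, 9 of them tested. In mutant eggs 0 were higher and 1 lower, a called share near the 15.1% of all tested genes, with a median log2 change of -0.18. In mutant FG follicles 1 was higher and 1 lower, near the 23.5% of all, with a median of -0.0016. The gene lower at both stages was map2k1, encoding the MAP kinase kinase MEK1, which Mos phosphorylates. It fell from 7.59 ± 0.957 to 2.78 ± 0.696 FPKM in eggs (log2 change -1.20, adjusted p = 3.46e-06) and from 5.66 ± 0.684 to 2.89 ± 0.352 in FG follicles (-0.78, adjusted p = 0.000991). rps6ka1, encoding a p90 ribosomal S6 kinase downstream of MAP kinase, rose in FG follicles (0.52, adjusted p = 0.00501). Between stages in wild type, 3 of the 9 were higher and 4 lower in eggs, among them raf1b (1.44) and mapk3 (-2.35). Of all tested genes 22.1% were higher and 60.8% lower there.

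Other regulators of M-phase entry formed a list of 34 genes, 33 in the table and 25 tested. In mutant eggs 2 were higher and 1 lower (median -0.09), near the 15.1% called among all tested genes. In mutant FG follicles 1 was higher and 7 lower (median -0.22), where 10.1% of all were higher and 13.4% lower. The genes counted as higher, arpp19a and ppp2r2aa, passed the filter only through the mutants, so the filter favoured that direction and only their values are given. arpp19a, a relative of the phosphoproteins that inhibit the phosphatase PP2A at M phase, had 0.429 ± 0.104 FPKM in wild-type and 1.71 ± 0.588 in mutant eggs, and 0.684 ± 0.0803 and 1.74 ± 0.615 in FG follicles. ppp2r2aa, a regulatory subunit gene of PP2A, had 0.766 ± 0.498 FPKM in wild-type and 3.45 ± 1.61 in mutant eggs. fbxo43, whose mouse and Xenopus products hold the egg in metaphase by inhibiting the anaphase-promoting complex, fell in eggs from 187 ± 36.1 to 128 ± 28.7 FPKM (-0.55, adjusted p = 0.0307). In FG follicles lmnb1, a nuclear lamin gene, fell from 96.1 ± 25.3 to 52.2 ± 3.51 FPKM (-0.83), and ensaa (-0.83) and fbxo5 (-0.64) fell too. wee1, the somatic relative of wee2, was at most 0.280 FPKM on average in any group. Between stages, 8 were higher and 13 lower in wild-type eggs, where 22.1% of all tested genes were higher and 60.8% lower. Among those counted, ccnb3 and fzr1a passed the filter only through FG follicles, and ccne1 only through eggs. The largest changes were those of fbxo43 (3.26) and fbxo5 (-4.68), both inhibitors of the anaphase-promoting complex.

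Upstream of these genes stand the progestin receptors and cyclic AMP, whose fall lets the oocyte resume meiosis. Of 25 listed genes 24 were in the table and 11 were tested, with 1 higher and 1 lower in mutant eggs (median -0.15) and 2 higher and 3 lower in mutant FG follicles (median -0.31), where 15.1% and 23.5% of all tested genes were called. adcy9, an adenylyl cyclase gene, rose at both stages (0.79 in eggs, 0.97 in FG follicles). pgrmc1, a progesterone receptor membrane component gene, fell at both (-0.77 and -0.71). The nuclear progestin receptor gene pgr, the other gene counted as higher in FG follicles, passed the filter only through the mutants, and had 1.72 ± 1.11 FPKM in wild type and 8.57 ± 6.70 in mutants there. The protein kinase A genes prkacbb (-0.43) and prkar1aa (-0.40) fell in FG follicles.

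Control of stored mRNA was covered by 31 genes, 24 of them tested. In mutant eggs 3 were higher and 2 lower (median 0.02), and in mutant FG follicles 2 were higher and 5 lower (median -0.11), near the 15.1% and 23.5% of all tested genes called. cnot7, a deadenylase gene of the CCR4-NOT complex, rose in eggs from 1.46 ± 0.321 to 6.73 ± 1.07 FPKM (1.65, adjusted p = 2.60e-08) and in FG follicles from 0.182 ± 0.0181 to 1.16 ± 0.381 (0.86). It was the 1 gene of the list whose genotype change was called as differing between eggs and FG follicles on the log2(FPKM + 1) scale (0.79, adjusted p = 0.0166). However, cnot7 reached 1 FPKM in 0 wild-type and 2 mutant FG libraries, and such low values draw the FG change towards 0. The difference therefore does not show a larger relative rise in eggs. zar1l, an RNA-binding gene of oocytes, fell at both stages (-1.33 and -1.21). eif4enif1, which encodes a partner of the cap-binding protein eIF4E, fell in eggs (-0.73), and dazl (-0.73) and cnot8 (-0.45) fell in FG follicles. elavl2 (0.47) and patl1 (0.29) rose in eggs. The gene listed as patl2 (named si:ch211-103b1.2 in the table) rose in FG follicles (0.64).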

How the data were processed

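Poly(A) RNA libraries (TruSeq Stranded mRNA kit, RNA integrity number of at least 7, per the labels' protocols) came from 18 pools of eggs or follicles. The authors deposited FPKM values per Ensembl gene. Per the submitters' processing notes, Trimmomatic, HISAT2, Cufflinks, HTSeq and the build GRCz11 were used; versions, roles, the annotation, the use of strand and the handling of reads shared by similar genes are not given in the sources used here. FPKM is not a count, so no count test was run and depth is unknown.

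The log2 of FPKM plus a pseudocount of 1 was analysed. A gene entered when 4 or more libraries reached 1 FPKM (10547 of 25432), and the fit was made with limma 3.58.1 (lmFit, eBayes with trend) in R 4.3.3 (tables read by the package data.table, version 1.17.8), with 4 group means and 14 residual degrees of freedom, and called at a Benjamini-Hochberg adjusted p under 0.05 over all genes tested. The script was tested on simulated data. The 2 members under the filter got exact permutation tests, two-sided. Changes are on the log2(FPKM + 1) scale, which understates the change of low genes. Tables and figures were made with Python 3.11.15, pandas 2.3.3, numpy 2.4.6 and matplotlib 3.10.9. Sensitivity settings, tried 1 at a time, were a pseudocount of 0.1, no filter, rescaling to an equal sum per library (TPM) with and without mitochondrial genes, median-of-ratios scaling, fits of the compared groups alone, a replicate block and leaving out each library. Splitting the egg libraries (1 to 3, 4 and 5) and averaging mutant FG libraries 1 and 3 were added after seeing the data.

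The members and lists were chosen with earlier results of these data known. All 10 members were named in every comparison. Of each pathway list, up to 3 called genes each way in a genotype comparison and up to 2 each way between stages were eligible to be named, by size of change.

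Same-numbered wild-type and mutant egg libraries deviated together from their group means (r from 0.112 to 0.447 over the 5 numbers). By a rule of r above 0.1 in every pair the egg numbers would count as paired, from the data and not from the labels. The main fit did not pair them. Pairing entered only with the replicate block, a sensitivity setting, where wee2 in eggs had a limma adjusted p of 0.00566. Differently numbered egg libraries correlated as well within 1 to 3 (r from 0.128 to 0.268) and within 4 and 5 (0.344 and 0.372), and negatively across that split, so the deviations follow the split at least as much as the numbers. Same-numbered FG libraries did not (r from -0.118 to -0.0230).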

Additional observations from a re-analysis of the deposited data

Results flagged for a closer look

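Among 32 sets of values (8 tested genes in 4 groups), 2 held a library far from the others of its group by Dixon's criterion, and chance alone flags about 5% of such sets. ccna2 had 29.5 FPKM in wild-type FG library 3, with the nearest wild-type library at 63.2. pkmyt1 had 20.6 FPKM in wild-type FG library 1, with the nearest at 15.6.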

How the results depend on the processing

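Of 744 recomputed log2 changes of members, 705 kept their direction and side of the threshold, 19 lost it, 4 gained it and 16 reversed. In eggs, 1 member was called, but 2 with TPM without mitochondrial genes, and 0 with median-of-ratios scaling or with egg libraries 4 and 5 alone. In FG follicles 3 were called, but 2 with a pseudocount of 0.1, with TPM with or without mitochondrial genes and in a fit of those groups alone, and 1 with median-of-ratios scaling. The difference of the genotype change between stages went from 0 called to 1 with TPM without mitochondrial genes. Between stages 8 were called in each genotype, but 7 in wild type with TPM or no filter, and 6 in mutants with TPM. Leaving out each library gave 1 to 1 called in eggs, 2 to 4 in FG follicles, 0 to 0 for the difference, 7 to 8 between stages in wild type and 8 to 8 in mutants. With the replicate block, which changed no member's call, there were 1, 3, 0, 8 and 8. The counts between stages and the 744 values include pkmyt1, which passed the filter only through FG follicles. Its stage calls are no test.

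Reversed values were uncalled. ccnb2 in eggs had -0.089 with TPM, -0.12 with median-of-ratios scaling, -0.057 with egg libraries 1 to 3 alone, and -0.041 to 0.051 on leaving out a library; cdc25b in eggs had -0.019 with median-of-ratios scaling. ccna1 in FG follicles had 0.10 with TPM, 0.019 with TPM without mitochondrial genes, and -0.20 to 0.042 on leaving out a library. The difference of the genotype change between stages had 0.14 (pseudocount 0.1) and 0.076 (TPM without mitochondrial genes) for pkmyt1, and -0.042 (ccnb1) and -0.028 (ccna1) with TPM. wee2 between stages in mutants had -0.025 with TPM. Median-of-ratios scaling moved the median of all genes between stages from -0.85 to -0.14 in wild type and from -0.79 to -0.12 in mutants, and the share of calls that were higher from 26.7% to 46.1% and from 28.7% to 46.7%. That share was 48.8% in the egg comparison (34.4% with TPM, 65.4% without mitochondrial genes, 38.5% with median-of-ratios scaling) and 42.9% in FG follicles (59.9% with TPM, which moved the median from -0.05 to 0.08). Calls over all genes went from 2475 to 3753 with no filter in FG follicles, and for the difference from 733 to 372 (pseudocount 0.1), 473 (TPM) and 469 (without mitochondrial genes). The causes were not tested. Depth is unknown, so the read support of low values such as those of cdc25d and mos cannot be given.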

Other observations

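The 3 genes whose log2 values over the 18 libraries were most like those of a member were found by the root mean square difference after centring each gene. For wee2, whose SD over libraries was 0.58 on the log2 scale, they were selenow2a (0.199), rab6a (0.229) and tmem51a (0.243). For ccnb2 (SD 0.63) they were top2a (0.124), tpm3 (0.125) and arf6a (0.130). For cdk1 (SD 1.504) they were rp9 (0.298), alad (0.299) and micu2 (0.307). The groups and stages are shared by all of these genes, so the likeness is a description.

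Of 9 proliferation genes 7 were tested. In mutant eggs 0 were higher and 0 lower, where 7.35% of all tested genes were higher and 7.71% lower. In mutant FG follicles 0 were higher and 1 lower, where 10.1% of all were higher and 13.4% lower. That gene was top2a, encoding the topoisomerase that untangles chromosomes, which fell from 89.6 ± 9.07 to 60.3 ± 1.66 FPKM (log2 change -0.56, limma adjusted p = 0.000299) and whose change differed between stages (0.53, adjusted p = 0.0148). Between stages in wild type, 2 were higher and 4 lower in eggs, where 22.1% of all tested genes were higher and 60.8% lower. top2a (0.88) and mcm7 (0.65) were higher in eggs, while mcm2 (-4.45) and mcm5 (-4.45), which encode subunits of the replicative helicase, were lower.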
